A study of Arabidopsis thaliana with 9 samples.

Results

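The probe sets described here are the 150 that were brightest in wild-type Arabidopsis thaliana root, out of 22746 plant probe sets on the ATH1 array. They were chosen by their mean signal on Col-0 replicates 1 and 2, with transcripts of the plastid genome and those of PYK10, JAL33 and AT2G46600 left out. Signals on those arrays chose the members, so their brightness there is a description and not a finding. RNA of whole roots at 7 days after germination was hybridised for 9 samples: 3 of SCL3 OE, a line overexpressing SCL3, 3 of the mutant scl3 (allele scl3-1) and 3 of wild type (Col-0). All were in the Col-0 ecotype and grown on MS medium under long days at 22°C, and the labels do not give the promoter of the overexpression construct or whether roots were pooled. SCL3 is a GRAS-family protein known for its part in gibberellin signalling and in the root ground tissue. The submitters describe each group of 3 as biological replicates.

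A young root grows by dividing and elongating cells, and such cells make ribosomes, translation factors and the enzymes of central metabolism in large amounts. The ribosome consists of a small subunit, which reads the message, and a large subunit, which joins the amino acids and carries a flexible stalk of P proteins that recruits translation factors. Roots of Arabidopsis and its relatives also hold beta-glucosidases and jacalin-related lectins, the PYK10 system of the endoplasmic reticulum bodies, which is known from defence against herbivores and microbes.

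The signals are MAS5 signals, the summary of the probes of one probe set on a linear scale, and each array had been brought to one trimmed mean. Signals of different probe sets depend on their probes, so the order below is an order of signal and not of transcript numbers. The mean signal of the members on Col-0 replicates 1 and 2 ran from 12070 to 53869, a 4.46-fold range, with a median of 16207 against a median of 187 over all plant probe sets. The last probe sets inside the limit were at 12127, 12100 and 12070 (the last of these AT5G47700, a stalk protein P1), and the first outside were at 12036, 12021 and 11990. Of the excluded probe sets, only that of PYK10 would have entered. The annotation used here gave 52 members 1 gene, gave 14 several genes and left 84 unnamed, or 56.0% of the members against 38.4% of all plant probe sets. What follows about functions therefore covers 66 members.

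The arrays did not form one group per genotype, and this touches each result below. The arrays were clustered on the 45 probe sets of spiked-in control RNAs, which report on handling and not on the plant. The clustering was cut at 3 sets, a number that was set and not estimated. The sets were the 3 SCL3 OE arrays, replicate 3 of scl3 and Col-0, and replicates 1 and 2 of scl3 and Col-0. How well separated the sets are was not tested. The summed signal of the 6 annotated leaf photosynthesis transcripts was 2364, 2197 and 1860 on the SCL3 OE arrays, 663, 969 and 89520 on scl3 replicates 1 to 3, and 685, 897 and 92262 on Col-0 replicates 1 to 3. All 6 of these transcripts were far higher on both replicate 3 arrays, whose labels also say whole root. The summed signal of 5 annotated root tissue markers ran from 2635 to 2939 in SCL3 OE, from 2615 to 6939 in scl3 and from 2894 to 7393 in Col-0. The highest sum of scl3 and of Col-0 was that of replicate 3, and the 5 markers did not move alike there. AT1G09750 was at 430, 315 and 311 in SCL3 OE, 125, 208 and 5009 in scl3, and 137, 173 and 5440 in Col-0, and AT1G62500 was also highest on both replicate 3 arrays. The root hair expansin transcripts EXPA7 and EXPA18 were lowest on both, and EXPA7 was at 1126, 937 and 993 in SCL3 OE, 696, 641 and 317 in scl3, and 677, 917 and 220 in Col-0. Since SCL3 OE makes up an array set of its own, its genotype and its array set cannot be told apart.

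Ribosomal proteins made up most of what could be named. Of the 66 annotated members, 42 (63.6%) encoded cytosolic ribosomal proteins, against 154 (1.099%) of all annotated plant probe sets, so that 27.3% of the ribosomal probe sets were members. They covered 34 protein families: 24 probe sets were of large-subunit L proteins, 13 of small-subunit S proteins and 5 of the stalk proteins P0, P1 and P2. A further 37 of the 154 stood in the next 150 places, and 117 stood within the first 1000. The assignment of loci to ribosomal families was made after the members were seen. Since the other 84 members could not be named, the share of ribosomal proteins among all members is not known here.

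The brightest ribosomal probe sets with 1 gene were AT4G39200 (S25, mean 26319 on Col-0 replicates 1 and 2), AT5G20290 (S8, 25544), AT3G49910 (L26, 24534) and AT1G52300 (L37, 23101). Next came AT3G60245 (L37a, 22679), AT1G67430 (L17, 19737), AT3G09200 (P0, the base of the stalk, 19639), AT5G15200 (S9, 19581), AT1G01100 (P1, 19220), AT2G19730 (L28, 18785), AT2G34480 (L18a, 18638) and AT4G27090 (L14, 18178). In 8 families 2 member probe sets were present. The paired stalk protein P2 genes AT2G27710 and AT2G27720 carry neighbouring locus numbers.

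The other 24 annotated members included transcripts of translation, metabolism, defence and stress protection. The second brightest member of all was the probe set shared by 4 genes of elongation factor 1-alpha, which delivers aminoacyl-tRNA to the ribosome, with a mean of 39864. AT5G19510, the beta subunit of the exchange factor that recharges it, was at 13093. The metal-binding metallothionein MT1C was the brightest member with 1 gene (31208). Central metabolism was represented by GAPC2, the cytosolic glyceraldehyde-3-phosphate dehydrogenase of glycolysis (20342), TPI, triose phosphate isomerase (15299), and cICDH, the cytosolic isocitrate dehydrogenase (17632). CYTC-1, cytochrome c (13154), and AT4G37830, a subunit of cytochrome c oxidase (12532), belong to respiration, and SAMDC (12667) makes the precursor of polyamines.

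Defence and stress transcripts included the defensins LCR69 (16862) and LCR68 (14309), the peroxidase PRXR1 (16100), the lectin JAL34 (18076), the beta-glucosidase BGLU25 (12426) and a probe set shared by 2 further beta-glucosidase genes (26848). The dehydrins AT1G54410 (17696) and COR47 (13116), known to accumulate on drying and cold, were also members. AT1G78040 (18351) belongs to the Ole e 1 family of secreted proteins and AT3G48140 (17866) to the B12D family. No function is given here for AT3G22240 (18579) and AT5G64400 (13551). None of the annotated probe sets on the lists of aquaporins (1), cytoskeleton (12), histones (18), wall proteins (7) and membrane pumps (9) was a member. The lists name 19, 23, 24, 19 and 14 loci in that order, and a locus without an annotated probe set could not be counted. With 84 members unnamed, absence of these functions from the members is not shown.

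The maximum signal was lower on the SCL3 OE arrays. It was 28468, 24908 and 24106 there, against 50392, 54286 and 37734 in scl3 and 47820, 59917 and 38841 in Col-0, so the groups did not overlap. The number of plant probe sets above a signal of 20000 was 2, 1 and 1 in SCL3 OE, 40, 38 and 32 in scl3, and 28, 42 and 36 in Col-0. The members' median signal was 11969, 11264 and 11098 in SCL3 OE, 16226, 16475 and 11549 in scl3, and 15375, 16614 and 10910 in Col-0. The SCL3 OE medians thus lay near those of the replicate 3 arrays of the other genotypes and below those of replicates 1 and 2.

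On the replicate 3 arrays the drop had another shape. There the top of the scale was kept, and other transcripts filled it: the arrays' own brightest 150 probe sets held 15.8% of the total plant signal in scl3 replicate 3 and 16.1% in Col-0 replicate 3, while the members held 11.01% and 10.6%. On the SCL3 OE arrays the own brightest 150 held 12.8%, 12.1% and 12.1%, and the members held 12.1%, 11.5% and 11.5%. On replicates 1 and 2 the members held 16.5% and 16.7% in scl3, and 15.9% and 17.03% in Col-0. Of all arrays, those of SCL3 OE had the most compressed top, at like trimmed means.

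**Figure D1:**
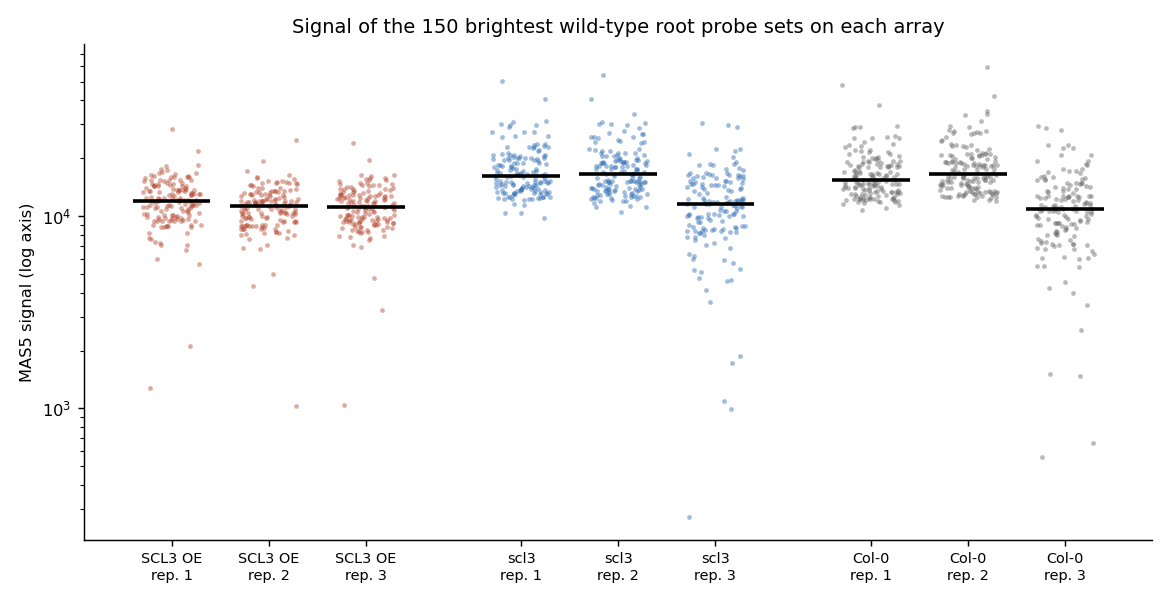
Each point is the MAS5 signal (log axis) of 1 of the 150 members on 1 array, and the black bar is the members' median. The SCL3 OE points reach at most 28468 and are packed between about the same limits on all 3 arrays, while replicate 3 of scl3 and of Col-0 shows a long tail of low values.

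Most members stayed among the brightest in SCL3 OE by rank, which no scaling of an array can alter. Of the 150 members, 118, 116 and 117 stood among the 150 brightest of the SCL3 OE arrays. In scl3 the numbers were 143, 140 and 65, and in Col-0 they were 146, 147 and 55, where replicates 1 and 2 chose the members. Within the brightest 300 stood 145, 147 and 147 in SCL3 OE, 150, 150 and 119 in scl3, and 150, 150 and 111 in Col-0. On all 9 arrays 48 members were among the brightest 150, among them GAPC2, TPI, LCR69, PRXR1, SAMDC, AT1G78040, AT3G48140 and 9 ribosomal probe sets. The brightest member, an unnamed probe set, was first on all 3 SCL3 OE arrays and on replicates 1 and 2 of both scl3 and Col-0, and the elongation factor 1-alpha probe set was second on all 3 SCL3 OE arrays.

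Ribosomal members stood lower in the order on the SCL3 OE arrays than on scl3 replicates 1 and 2, and higher than on scl3 replicate 3. Of the 42, 27, 26 and 27 stood among the 150 brightest of the SCL3 OE arrays, against 41, 39 and 14 in scl3. Their median place was 117.5, 131 and 126 in SCL3 OE, against 74 and 84 on scl3 replicates 1 and 2 and 210.5 on scl3 replicate 3. Of the 24 other annotated members, 20 stood among the brightest on each SCL3 OE array, against 23, 23 and 11 in scl3, and their median place was 90, 78 and 89.5 in SCL3 OE against 82, 70.5 and 154.5 in scl3. The unnamed members had median places of 70, 72.5 and 76 in SCL3 OE, against 71.5, 74.5 and 156 in scl3. The difference between ribosomal and other members was not tested.

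**Figure D2:**
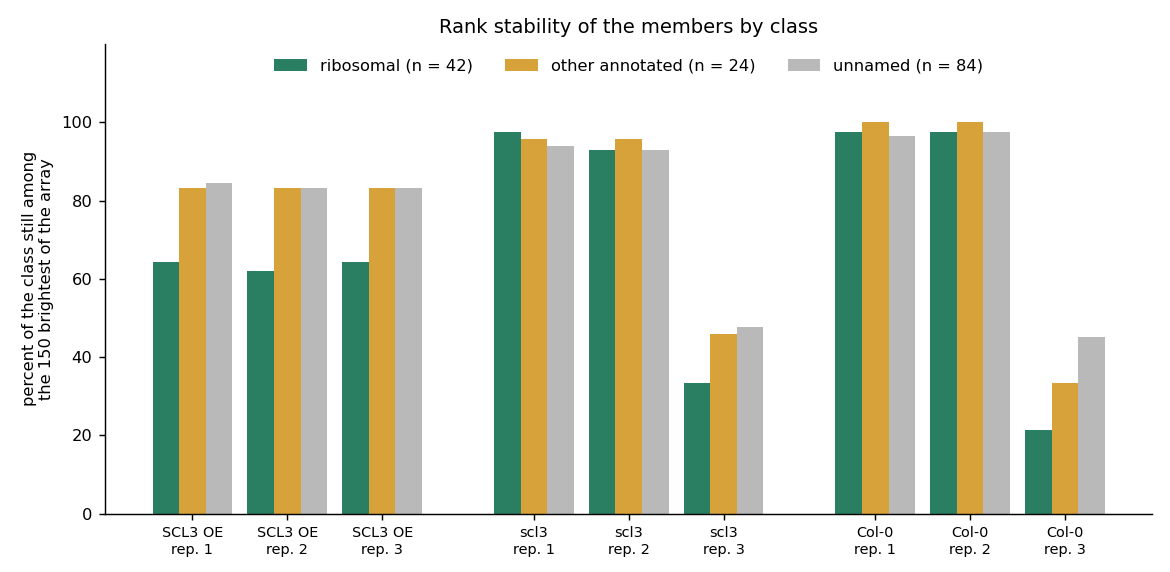
Bars give the percent of each class of members that stood among the 150 brightest eligible probe sets of each array (ribosomal n = 42, other annotated n = 24, unnamed n = 84). On the SCL3 OE arrays 26 or 27 ribosomal, 20 other annotated and 70 or 71 unnamed members were kept, and on replicates 1 and 2 of scl3 39 or 41, 23 and 78 or 79.

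The difference SCL3 OE minus scl3 is computed from no array that chose the members and is the one tested here, although all 9 arrays, Col-0 replicates 1 and 2 included, set the spread used in the test. It is not free of that choice, since scl3 replicates 1 and 2 share an array set with Col-0 replicates 1 and 2. Same-numbered arrays of the 2 genotypes deviated from their group means together (correlations of 0.90 and 0.89 for replicates 1 and 2). How far the choice favours lower member values in SCL3 OE was not tested. On the values as deposited, 134 of the 150 members had a lower mean in SCL3 OE, with a median log2 difference of -0.42, while over all 13647 probe sets tested the median was 0.12 and 5197 were lower; after quantile normalization, which gives every array the same distribution of signals, 56 members were lower and 94 higher. In whole-root RNA, fewer cells of a type and less RNA per cell cannot be told apart. All 150 members were among those tested. With limma and Benjamini-Hochberg adjustment over all tested probe sets, 5 members passed an adjusted p of 0.05 and all 5 were lower in SCL3 OE. That is close to the background, where 1.91% of the probe sets passed. The 95% interval of the difference lay within 2-fold for 73 members (48.7%), against 45.6% of all tested. The spread behind these tests and intervals takes in the offset of the replicate 3 arrays.

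GAPC2 and TPI, which catalyse adjoining reactions of glycolysis, were among the 5. GAPC2 was at 13038, 11756 and 11992 in SCL3 OE, against 20040, 19549 and 19141 in scl3, and at 19785, 20898 and 19335 in Col-0. The groups did not overlap, and GAPC2 was even across the 6 arrays of scl3 and Col-0, replicate 3 included. Its log2 difference SCL3 OE minus scl3 was -0.68 ± 0.09 (SE, n = 3 each, limma adjusted p = 0.019). TPI was at 10951, 10201 and 10123 in SCL3 OE, against 15204, 15684 and 15761 in scl3, and at 14522, 16075 and 12786 in Col-0. Its difference from scl3 was -0.58 ± 0.11 (SE, n = 3 each, limma adjusted p = 0.049).

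The third named one was AT1G78040 of the Ole e 1 family, at 13777, 12327 and 12431 in SCL3 OE, against 18477, 19839 and 21727 in scl3, and at 18043, 18659 and 19336 in Col-0. Again no SCL3 OE value reached any of the others, and the log2 difference from scl3 was -0.64 ± 0.11 (SE, n = 3 each, limma adjusted p = 0.028). The remaining 2 were unnamed. One, the third brightest member, was at 15357, 15861 and 14334 in SCL3 OE, against 30015, 33929 and 30566 in scl3, with a log2 difference of -1.05 ± 0.11 (SE, n = 3 each, limma adjusted p = 0.010). The other was at 8119, 7998 and 7909 in SCL3 OE, against 13320, 12454 and 13495 in scl3 (log2 difference -0.71 ± 0.10, SE, n = 3 each, limma adjusted p = 0.017).

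These calls rest on the scaling and on single arrays. After quantile normalization none of the 5 passed (limma, 14 members at an unadjusted p under 0.05), 4 other members passed and were higher in SCL3 OE, and the members' median difference was 0.064; GAPC2 kept its sign, at -0.17 with an adjusted p of 0.45. Without any 1 of the 3 SCL3 OE arrays, or without scl3 replicate 1, no member passed (limma, 30 to 41 members at an unadjusted p under 0.05). With scl3 replicate 2 left out 1 member passed, and with Col-0 replicate 1 or 2 left out 3 did. With scl3 replicate 3 left out 9 did, and with Col-0 replicate 3 left out 22 did. The number passing over all tested probe sets moved between these fits as well, and was 309 of 13647 after quantile normalization. These counts are therefore not read as results about the members.

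**Figure D3:**
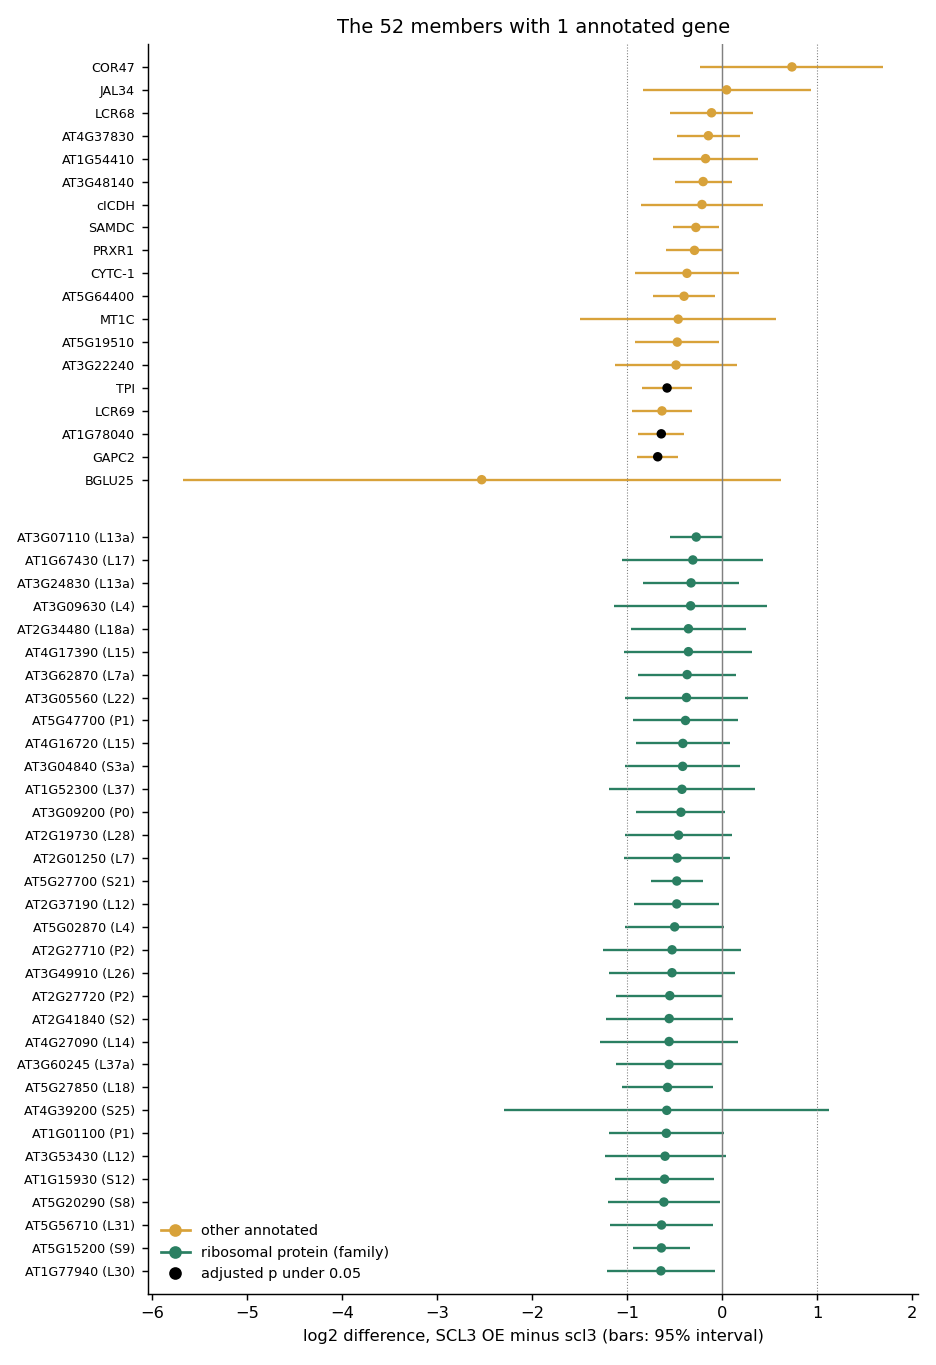
Points are the log2 differences SCL3 OE minus scl3 of the 52 members with 1 annotated gene and bars their 95% intervals (n = 3 arrays each), with ribosomal proteins labelled by family. Black points passed an adjusted p of 0.05 (GAPC2, TPI and AT1G78040), and all 33 ribosomal points lie below 0 on these deposited values while none passed; after quantile normalization 23 of all 42 ribosomal members were lower and 19 higher.

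On the deposited values all 42 ribosomal members had a lower mean in SCL3 OE than in scl3, with a median log2 difference of -0.49, whereas after quantile normalization 23 were lower and 19 higher, with a median of -0.034. The deposited differences ranged from -0.75 to -0.27, and none passed (limma, 12 at an unadjusted p under 0.05). The median was -0.58 for the 13 small-subunit probe sets, -0.46 for the 24 L probe sets and -0.53 for the 5 stalk probe sets. In the 8 families with 2 member probe sets, the difference between the 2 log2 differences ranged from 0.024 for P2 to 0.24 for S29, whose 2 probe sets share the same genes. The 99 tested ribosomal probe sets outside the members had a median of -0.28, with 88 lower in SCL3 OE, so the dimmer ones also lay below the median of all tested probe sets. Many of them are bright as well, and 37 stood at places 151 to 300 in the Col-0 order. Over all probe sets the median was -0.25 at those places and -0.0032 at places 301 to 1000. Whether ribosomal probe sets differ from others of like brightness was not tested.

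AT5G20290 (S8) may stand for the ribosomal members. It was at 16077, 13973 and 14182 in SCL3 OE, against 26212, 26802 and 16156 in scl3, and at 23644, 27444 and 15958 in Col-0. Replicate 3 of scl3 lay close to the SCL3 OE arrays and far below replicates 1 and 2. Its log2 difference from scl3 was -0.61 ± 0.26 (SE, n = 3 each, limma adjusted p = 0.32). AT5G15200 (S9), at 13894, 11742 and 12465 in SCL3 OE against 20901, 21219 and 17261 in scl3, missed the threshold by little (-0.64, limma adjusted p = 0.057). AT1G77940 (L30) and AT5G56710 (L31) had the same difference of -0.64, with adjusted p of 0.27 and 0.25 (limma).

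With the array set as a term of the fit, which takes out the offset of the replicate 3 arrays, 137 members passed for SCL3 OE minus scl3, 134 lower and 3 higher, with a median of -0.62. There 39% of all tested probe sets passed, and all 42 ribosomal members were lower and passed (median -0.71). With the array set as a random block, whose correlation is estimated, 0 members and 1 probe set in all passed (limma, 1 member at an unadjusted p under 0.05). Any offset of the SCL3 OE arrays as a set stays in the differences with the fixed term. With the fixed term and quantile normalization together, a fit chosen after the data were seen, the members' median was -0.12 and 71 passed, 51 lower and 20 higher. There 5235 of all 13647 probe sets tested passed. In that fit 41 of the 42 ribosomal members were lower, 23 of them past the threshold, with a median of -0.25, against -0.061 for the other annotated members and 0.018 for all tested. By groups that do not overlap, 67 members had every SCL3 OE array below every scl3 array, where 9.87% of the probe sets tested did, and 4 had every SCL3 OE array above, where 21.4% did. Among the 67 were 16 ribosomal members.

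The size of the difference followed brightness. For places 1 to 50 in the order of Col-0 signal, the median log2 difference SCL3 OE minus scl3 was -0.54, for 51 to 100 it was -0.39, for 101 to 150 it was -0.34 and for 151 to 300 it was -0.25. For places 301 to 1000 it was -0.0032, and for 1001 to 3000 it was 0.15. After quantile normalization the 7 medians lay between 0.037 and 0.11. Quantile normalization flattens such a trend by its construction, and the trend lies between array sets as well as between genotypes. The order comes from Col-0 replicates 1 and 2, which share an array set with scl3 replicates 1 and 2. Within scl3, the median of replicate 3 minus replicates 1 and 2 was -0.63 for places 1 to 50 and -0.54 for 101 to 150. It was -0.47 for 301 to 1000, -0.45 for 1001 to 3000 and -0.50 for 3001 to 10000. What part of the trend follows from the order was not tested.

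**Figure D4:**
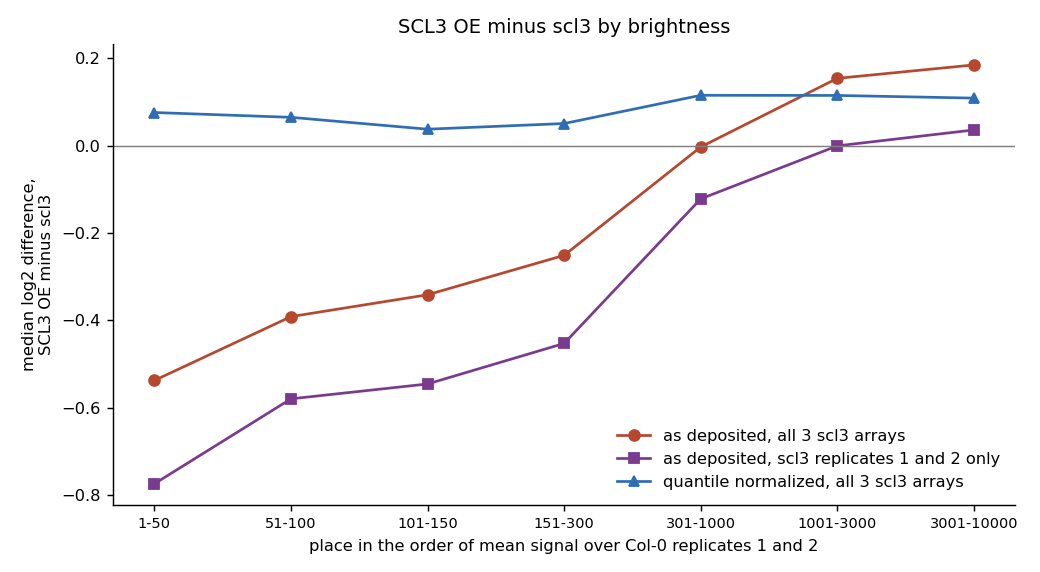
Points are medians of the log2 difference SCL3 OE minus scl3 (vertical axis) over probe sets grouped by their place in the order of Col-0 signal (horizontal axis), as deposited against all 3 scl3 arrays, as deposited against scl3 replicates 1 and 2, and after quantile normalization. Against all 3 scl3 arrays the deposited values climb from -0.54 for the brightest 50 to 0.15 for places 1001 to 3000, against scl3 replicates 1 and 2 they climb from -0.77 to -0.00065, and the quantile-normalized values stay between 0.037 and 0.11.

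Among the other annotated members, MT1C, like AT5G20290, was far lower on scl3 replicate 3 than on replicates 1 and 2. It was at 17560, 17053 and 16275 in SCL3 OE, against 29595, 30979 and 13855 in scl3, and at 28609, 33806 and 11426 in Col-0. The SCL3 OE values were even and lay between replicate 3 and the other arrays, and the difference from scl3 of -0.46 ± 0.45 did not pass (SE, n = 3 each, limma adjusted p = 0.72). LCR69 was at 11743, 10029 and 9811 in SCL3 OE, against 15256, 19123 and 14725 in scl3. Its groups did not overlap, and its difference of -0.63 missed the threshold (limma adjusted p = 0.063).

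COR47 stood at the other end of the named members. This dehydrin was at 15299, 12023 and 12910 in SCL3 OE, against 10358, 12068 and 4106 in scl3, and at 12208, 14024 and 7296 in Col-0. Its difference from scl3 was 0.74 ± 0.42 (SE, n = 3 each, limma adjusted p = 0.48), and the groups overlapped. JAL34 was at 14282, 15013 and 14873 in SCL3 OE, against 18136, 18862 and 8412 in scl3, with a difference of 0.05 that became -0.32 with the array set as a term.

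Annotated members with a wide spread between arrays included 2 beta-glucosidase probe sets and 1 of terpene synthases. BGLU25 was at 1272, 1028 and 1042 in SCL3 OE, against 13120, 18347 and 1089 in scl3, and at 11666, 13185 and 659 in Col-0. It stood at places 2762, 3496 and 3444 on the SCL3 OE arrays, and the SCL3 OE mean was 7.08% of the mean of scl3 replicates 1 and 2. The value of scl3 replicate 3 lay within those of SCL3 OE, and the difference of -2.53 ± 1.36 did not pass (SE, n = 3 each, limma adjusted p = 0.46). Without scl3 replicate 3 it was -3.81 and did not pass either, and with the array set as a term it was -3.87 and passed (limma adjusted p = 2.1e-08). A probe set shared by a pair of terpene synthase genes that form cineole was at 5960, 8643 and 8336 in SCL3 OE, against 14921, 15410 and 272 in scl3, and at 13235, 14583 and 556 in Col-0. That shared by 2 other beta-glucosidase genes was at 10944, 13976 and 13209 in SCL3 OE, against 31348, 25732 and 9263 in scl3, and at 25542, 28154 and 5467 in Col-0. In these 3 probe sets both replicate 3 arrays were far below replicates 1 and 2, where the leaf transcripts were far above. The part of that in the result was not tested. An unnamed member was at 2102, 4306 and 3241 in SCL3 OE, against 20008, 24007 and 8757 in scl3. On the Col-0 arrays it was at 15988, 20565 and 7626, so no SCL3 OE value reached any of the others. Its SCL3 OE mean was 14.6% of the mean of scl3 replicates 1 and 2, and its difference from scl3 did not pass.

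**Figure D5:**
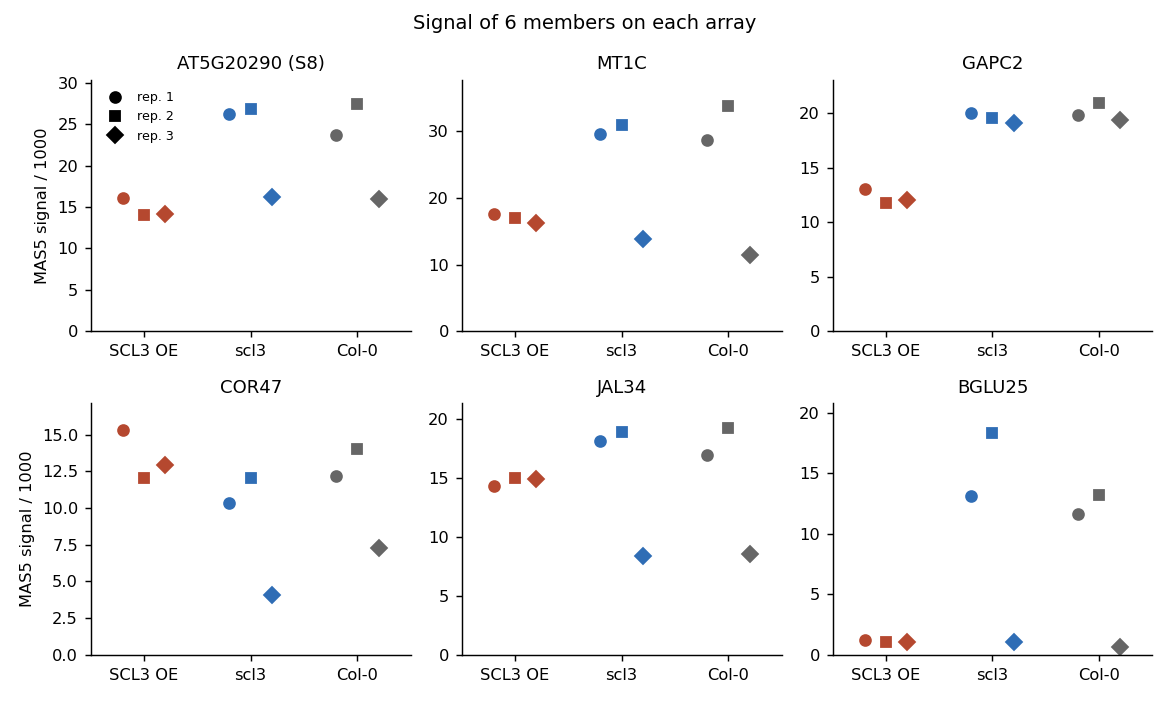
Points are MAS5 signals (divided by 1000) on each of the 9 arrays, with the replicate number by symbol. GAPC2 separates SCL3 OE from all other arrays, MT1C and JAL34 are lowest on replicate 3 of scl3 and Col-0, AT5G20290 is there close to SCL3 OE, COR47 overlaps between the groups, and BGLU25 is near 1000 in SCL3 OE and on both replicate 3 arrays.

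The values of scl3 against Col-0 are a description, since Col-0 replicates 1 and 2 chose the members, and nothing is read from them about stability. The median log2 difference scl3 minus Col-0 was 0.056, -0.034 and 0.055 for replicates 1, 2 and 3, and 150, 150 and 146 of the members lay within 2-fold. Over all 3 arrays a group the median was 0.035 and no member passed (limma, 0 members at an unadjusted p under 0.05), where 0.00733% of all tested probe sets passed. The 95% interval lay within 2-fold for 127 members (84.7%), against 61.1% of all tested. With the array set as a term it did so for 148 members, no member passed (limma, 18 at an unadjusted p under 0.05) and the share of all probe sets that passed was again 0.00733%. The named members farthest above Col-0 were BGLU25 (0.46), AT3G53430 (L12, 0.24), AT3G22240 (0.18) and AT5G64400 (0.16), and those farthest below were COR47 (-0.43), LCR68 (-0.26), AT4G39200 (S25, -0.19) and AT3G07110 (L13a, -0.05).

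Against Col-0, SCL3 OE gave values like those against scl3, and this comparison, which shares the SCL3 OE arrays with the one above and uses the arrays that chose the members, is a description. The median log2 difference SCL3 OE minus Col-0 was -0.38 over the members and 0.13 over all tested probe sets, and 133 members were lower. There 3 members passed, against 1.2% of all tested, and with the array set as a term 132 passed, against 33.6%. With the array set as a random block 0 members and 0 probe sets in all passed (limma, 1 member at an unadjusted p under 0.05). The lowest named members were BGLU25 (-2.07), AT4G39200 (-0.78), GAPC2 (-0.71) and LCR69 (-0.65), and the highest were COR47 (0.31), JAL34 (0.06), AT4G37830 (-0.13) and AT1G54410 (-0.16). AT4G39200 was uneven within SCL3 OE, at 6700, 14862 and 8415, and overlapped with Col-0 (23305, 29333 and 6148).

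Within SCL3 OE the members varied less than all tested probe sets, which are mostly dimmer. The median SD of the log2 signal over the 3 SCL3 OE arrays was 0.079 for the members and 0.12 for all tested probe sets, and 95 members (63.3%) had an SD under 0.1, against 39.01% of all tested. The members' median SD was also the lower within scl3 (0.34 against 0.43) and within Col-0 (0.38 against 0.46). Probe sets of like brightness were not compared. Over all 9 arrays the median SD was 0.36 for the members and 0.41 for all tested probe sets, and 29 members (19.3%) were under 0.25, against 22.4%. The steadiest named members over all 9 arrays were SAMDC (SD 0.14), AT4G37830 (0.15), AT3G48140 (0.16), AT3G07110 (L13a, 0.18), PRXR1 (0.19) and AT5G64400 (0.22). SAMDC was at 10331, 11355 and 11085 in SCL3 OE, 12511, 12684 and 14503 in scl3, and 12196, 13138 and 12527 in Col-0. Even there no SCL3 OE value reached the lowest of the others. The widest spread among named members was in BGLU25 (SD 2.03), AT4G39200 (0.96), COR47 (0.59), MT1C (0.58), AT4G27090 (0.46) and JAL34 (0.45).

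The replicate 3 arrays of scl3 and Col-0 stood apart from replicates 1 and 2 in most members. On them 136 members (90.7%) were lower than on replicates 1 and 2 of the same genotypes, with a median log2 difference of -0.62, against 68.3% of all tested probe sets and a median of -0.42. For 126 members (84.0%) both replicate 3 arrays lay below all 4 of the others, against 56.6% of all tested. By at least 2-fold 27 members (18%) were lower, against 24.4% of all tested. These shares are a description, since Col-0 replicates 1 and 2, which chose the members for their brightness, are among the arrays compared. That choice favours lower values of the members on the replicate 3 arrays. Of the probe sets outside the members, 76 entered the brightest 150 on both replicate 3 arrays, 4 of them from the leaf photosynthesis list (RCA, LHCB4.1, LHCB4.2 and PSAE-1). That list names 47 loci but has only 6 annotated probe sets, and only 16 of the 76 had 1 gene. The share of leaf transcripts among the 76 is therefore not known here. On all 3 SCL3 OE arrays 21 entered, none of them from that list, and 2 entered in both cases. The 7 of these 21 with 1 gene, among them the ubiquitin-conjugating enzyme UBC28 and the aspartic protease APA1, stood at places 159 to 382 in the Col-0 order.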

How the data were processed

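Per the submitters' processing notes, the authors made the deposited signal intensities (linear, 1 per probe set) with MAS5 in Affymetrix Expression Console 1.1. Each array's trimmed mean was 500.0, and the values were used as deposited. Values were analysed as log2(signal + 1), and this offset understates the changes of dim ones. Tests left aside 64 control probe sets. A filter at the 40th percentile of the mean log2 signal (6.65, a signal of 99.3) kept 13647 of 22746 plant probe sets, which were tested with limma 3.58.1 in R 4.3.3 (group as the only term, all 9 arrays, intensity trend, 2-sided moderated tests, Benjamini-Hochberg over all tested). Precision is limited by the number of arrays, and if replicates share a culture the p-values measure technical spread only. In the fit with group only, the groups share 1 spread, which takes in the offset of the replicate 3 arrays. The members' median SD of the log2 signal was 0.079 in SCL3 OE, 0.34 in scl3 and 0.38 in Col-0. Between scl3 replicates 1 and 2 their median absolute log2 difference was 0.066. The p-values and intervals of that fit therefore depend on that offset.

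The members, lists and tests were chosen with earlier results of these data known, and the list of ribosomal loci was written after the members were seen. Genes come from the platform annotation, with symbols from RefSeq (TAIR10.1), which matched all 52 members with 1 gene. Places are ranks among the probe sets that the rule allows. Named members with 1 gene were the 20 brightest, the ends of each comparison, the 4 brightest per list, and the 6 steadiest and 6 most variable. Probe sets of several or no genes that are described were chosen after their values were seen. Same-numbered scl3 and Col-0 arrays deviated from their group means together (correlations of 0.90, 0.89 and 0.95), which follows the array sets found from the control probe sets, and those of SCL3 OE did not (-0.12, 0.09 and -0.10 with scl3). The fit was tested on simulated data with independent noise of like size on every array and no array sets. That cannot show how the fit behaves under the offset of the replicate 3 arrays.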

Additional observations from a re-analysis of the deposited data

How the results depend on the processing

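For SCL3 OE minus scl3, the 5 members called became 2 with no filter on low signals, 3 without the intensity trend, 137 with the array set as a fixed term, 0 with it as a random block (limma, 1 at an unadjusted p under 0.05), 137 without both array set 2 arrays (scl3 and Col-0 replicate 3), 9 with a replicate block and 71 with the array set and quantile normalization together, a fit chosen after seeing the data. The 260 probe sets called in all became 5319, 1, 5501 and 5235 in the fixed term, the random block, the fit without those arrays and the combined one, and 369 with the replicate block. Leaving out 1 array at a time gave 0 to 22 members and 3 to 661 probe sets in all, with a median member difference from -0.62 to -0.33: each of the 9 arrays moved the count of members by over 1.5 times, the highest being 22 with Col-0 replicate 3 left out and 9 with scl3 replicate 3 left out. The members with an interval within 2-fold (73) became 119 after quantile normalization, 114, 8, 121 and 139 in the fixed term, random block, fit without set 2 and combined fit, and 50 to 102 without 1 array. The median difference became 0.064 after quantile normalization and -0.12 in the combined fit.

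For SCL3 OE minus Col-0, the 3 members called became 1 after quantile normalization, 1 without the intensity trend, 132 with the fixed term, 0 with the random block (limma, 1 at an unadjusted p under 0.05), 136 without set 2, 5 with the replicate block and 60 in the combined fit, and 0 to 11 without 1 array. The 164 probe sets called in all became 4590, 0, 5158 and 4512 in the fixed term, random block, fit without set 2 and combined fit, and 4 to 320 without 1 array. The members within 2-fold (86) became 8 with the random block, 130 without set 2, 145 in the combined fit and 51 to 106 without 1 array. The median (-0.38) became 0.088 after quantile normalization and -0.095 in the combined fit.

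With the 100 or the 300 brightest probe sets as members, 42 and 167 lay within 2-fold for SCL3 OE minus scl3, 50 and 190 for SCL3 OE minus Col-0, and 84 and 242 for scl3 minus Col-0; 5 of the 300 were called for SCL3 OE minus Col-0. On average 74.3% and 80.8% of them stood among as many brightest in SCL3 OE, and they held 8.42% and 19.4% of the plant signal in SCL3 OE, 11.04% and 22.9% in scl3, and 10.9% and 22.5% in Col-0. For scl3 minus Col-0, no alternative called a member.

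The difference SCL3 OE minus scl3 turned positive for AT3G48140 (0.43 after quantile normalization, 0.37 combined), AT1G54410 (0.37, 0.16), AT4G37830 (0.28, 0.16) and LCR68 (0.30, 0.13). That of JAL34 turned negative with the fixed term (-0.32), without set 2 (-0.33) and without scl3 replicate 3 (-0.33; from there to 0.25 without 1 array). GAPC2, AT1G78040 and TPI stayed past the threshold in 10, 5 and 4 of 18 alternatives. The cause of these changes was not tested. The replicate block changed no call for scl3 minus Col-0.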
